A study of Mus musculus with 44 samples.

Results

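The genes of hepatic de novo lipogenesis described here are Srebf1, Mlxipl, Acly, Acaca, Acacb, Fasn, Scd1, Elovl6, Me1 and Thrsp. They are a list of named genes whose rule uses no measured value, drawn up with earlier results of these data known. All 10 were found by symbol among the 35249 genes of the deposited count matrix, and all 10 were among the 14862 genes with enough counts to be tested. The study compared wild-type (WT) mice with mice lacking Ripk3 (Ripk3-/-, here Ripk3KO) or Mlkl (Mlkl-/-, here MlklKO), 2 genes required for necroptosis, a programmed and inflammatory form of cell death. From 2 months of age the mice ate a normal chow (control diet), or 1 of 2 choline-deficient diets, low in fat (CD-LFD) or high in fat (CD-HFD), for 6 months, and liver RNA was then sequenced in 44 libraries. The 9 groups held 6 WT libraries on each diet, 6, 3 and 4 Ripk3KO libraries on control diet, CD-LFD and CD-HFD, and 6, 4 and 3 MlklKO libraries on the same diets. Strain, sex, the deleted part of each gene and the time of day of dissection are not given in the sources used here. The labels do not say that each library came from its own mouse, so p-values measure the spread between libraries.

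De novo lipogenesis turns carbohydrate-derived citrate into fatty acids in the hepatocyte cytosol. ATP citrate lyase (Acly) releases acetyl-CoA, acetyl-CoA carboxylase (Acaca, and the mitochondria-associated Acacb) makes malonyl-CoA, and fatty acid synthase (Fasn) builds palmitate from them. Elovl6 elongates palmitate to stearate, Scd1 desaturates stearate to oleate, malic enzyme (Me1) supplies NADPH, and the genes are switched on after feeding by SREBP-1c (from Srebf1) under insulin, and by ChREBP (from Mlxipl) under glucose. Thrsp (Spot 14) is a small nuclear and cytosolic protein induced with them.

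Promoters are shown for Fasn, Thrsp and Acacb, which were picked for a CCAAT box, the letters bound by the factor NF-Y, within 90 bases of the start site. These members fell on CD-HFD in every genotype, and so did Elovl6, Acaca and Acly, whose windows held no CCAAT. The RefSeq promoter table (GRCm38.p6) held 9 of the 10 members, all but Scd1, in 13 windows, and each sequence is the 250 bases before the start site, read 5' to 3' on the gene's strand, with CCAAT on either strand in capitals (ATTGG where it lies on the other strand). The windows are chr11:120824548-120824797 on the minus strand for Fasn, chr7:97417551-97417800 on the minus strand for Thrsp and chr5:114165268-114165517 on the plus strand for Acacb.
Fasn: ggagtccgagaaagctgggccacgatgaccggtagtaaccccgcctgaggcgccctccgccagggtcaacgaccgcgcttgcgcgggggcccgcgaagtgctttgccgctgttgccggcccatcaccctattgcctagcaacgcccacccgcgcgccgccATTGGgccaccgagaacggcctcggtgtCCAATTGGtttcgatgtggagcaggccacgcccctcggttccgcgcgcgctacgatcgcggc
Thrsp: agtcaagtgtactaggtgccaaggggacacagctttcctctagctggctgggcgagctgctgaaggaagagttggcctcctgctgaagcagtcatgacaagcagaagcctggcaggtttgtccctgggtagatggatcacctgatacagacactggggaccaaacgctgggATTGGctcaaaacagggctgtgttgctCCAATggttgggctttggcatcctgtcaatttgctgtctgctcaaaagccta
Acacb: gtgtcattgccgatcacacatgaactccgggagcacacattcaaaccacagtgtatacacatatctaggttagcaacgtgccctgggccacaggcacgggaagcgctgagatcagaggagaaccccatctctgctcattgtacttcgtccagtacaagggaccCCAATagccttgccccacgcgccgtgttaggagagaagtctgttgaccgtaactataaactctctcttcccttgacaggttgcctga
The matches began 90, 62 and 59 bases before the start site in Fasn, the last 2 overlapping on opposite strands, 79 and 52 bases before it in Thrsp, and 87 bases before it in Acacb. CCAAT was found on either strand in 7 of the 13 windows (6 of 9 members) and in 33.8% of all 32851 windows of that length. The letters CACGTG, an E-box whose reverse strand reads the same, were in 1 member window (Mlxipl, 98 bases before the start site) and in 6.02% of all windows. The sterol response element letters TCACNCCAC were in 1 member window (another start site of Mlxipl) and in 1.05% of all. A match of letters is a description and not a bound site.

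Total counts were 2476268 to 12471844 in 43 libraries and 88204703 in WT CD-LFD replicate 3. Counts were scaled by TMM (trimmed mean of M values) to CPM (counts scaled to a common library size), and the lowest count of any member in any library was 83 (Acacb). Ripk3 was 0.511 to 4.89 CPM in WT libraries and 0 to 0.326 in 12 of the 13 Ripk3KO libraries. It was 1.26 CPM in the library labelled Ripk3KO control replicate 5. Mlkl was detected in every MlklKO library, at 1.46 to 4.83 CPM in 12 of them and 12.5 in replicate 1 of the libraries labelled MlklKO CD-HFD, against 9.85 to 17.7 in WT on the choline-deficient diets. On the control diet the MlklKO libraries (1.46 to 3.04 CPM) overlapped the WT libraries (2.28 to 6.15). The Y-linked gene Ddx3y was read in all 44 libraries (29.5 to 123 CPM), and Xist reached 10.9 CPM in Ripk3KO CD-LFD replicate 3. The clock-gene ratio of Arntl to Dbp split the libraries into 33 and 11. Within the larger set its log2 value still ran from -7.88 to -3.67. All knockout libraries, 5 of 6 WT CD-HFD, 2 of 6 WT control and 0 of 6 WT CD-LFD libraries were in the larger clock phase, so that phase moved with diet in WT, and with genotype both on CD-LFD and on the control diet. For several results on the members, values within a clock phase or with the ratio as a covariate are given too.

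Lipogenic mRNA was lowest on CD-HFD in every genotype. For 9 of 10 members, all but Srebf1, the 3 CD-HFD groups had the 3 lowest group means of the 9, and for Fasn, Scd1 and Elovl6 each of the 13 CD-HFD libraries was below each of the other 31. Between groups next to each other in the order of means, the libraries overlapped in 75 of 80 cases, so most of the finer order within a diet is not resolved. The exception within a diet was Acacb, where MlklKO CD-HFD libraries lay above WT CD-HFD libraries. In WT on the control diet and per kilobase of exon, the order of mean levels was Scd1 (2170 CPM per kb), Thrsp (461), Mlxipl (143), Fasn (134), Srebf1 (104), Acly (97.8), Me1 (88.9), Elovl6 (28.7), Acacb (18.6) and Acaca (7.86). Within that group the highest library was 2.78 (Fasn) to 12.7 (Me1) times the lowest, so neighbours in this order overlapped widely. Scd1 has close paralogs whose reads can be shared with it, and gene counts do not separate the isoforms of Srebf1 or Mlxipl.

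**Figure D1:**
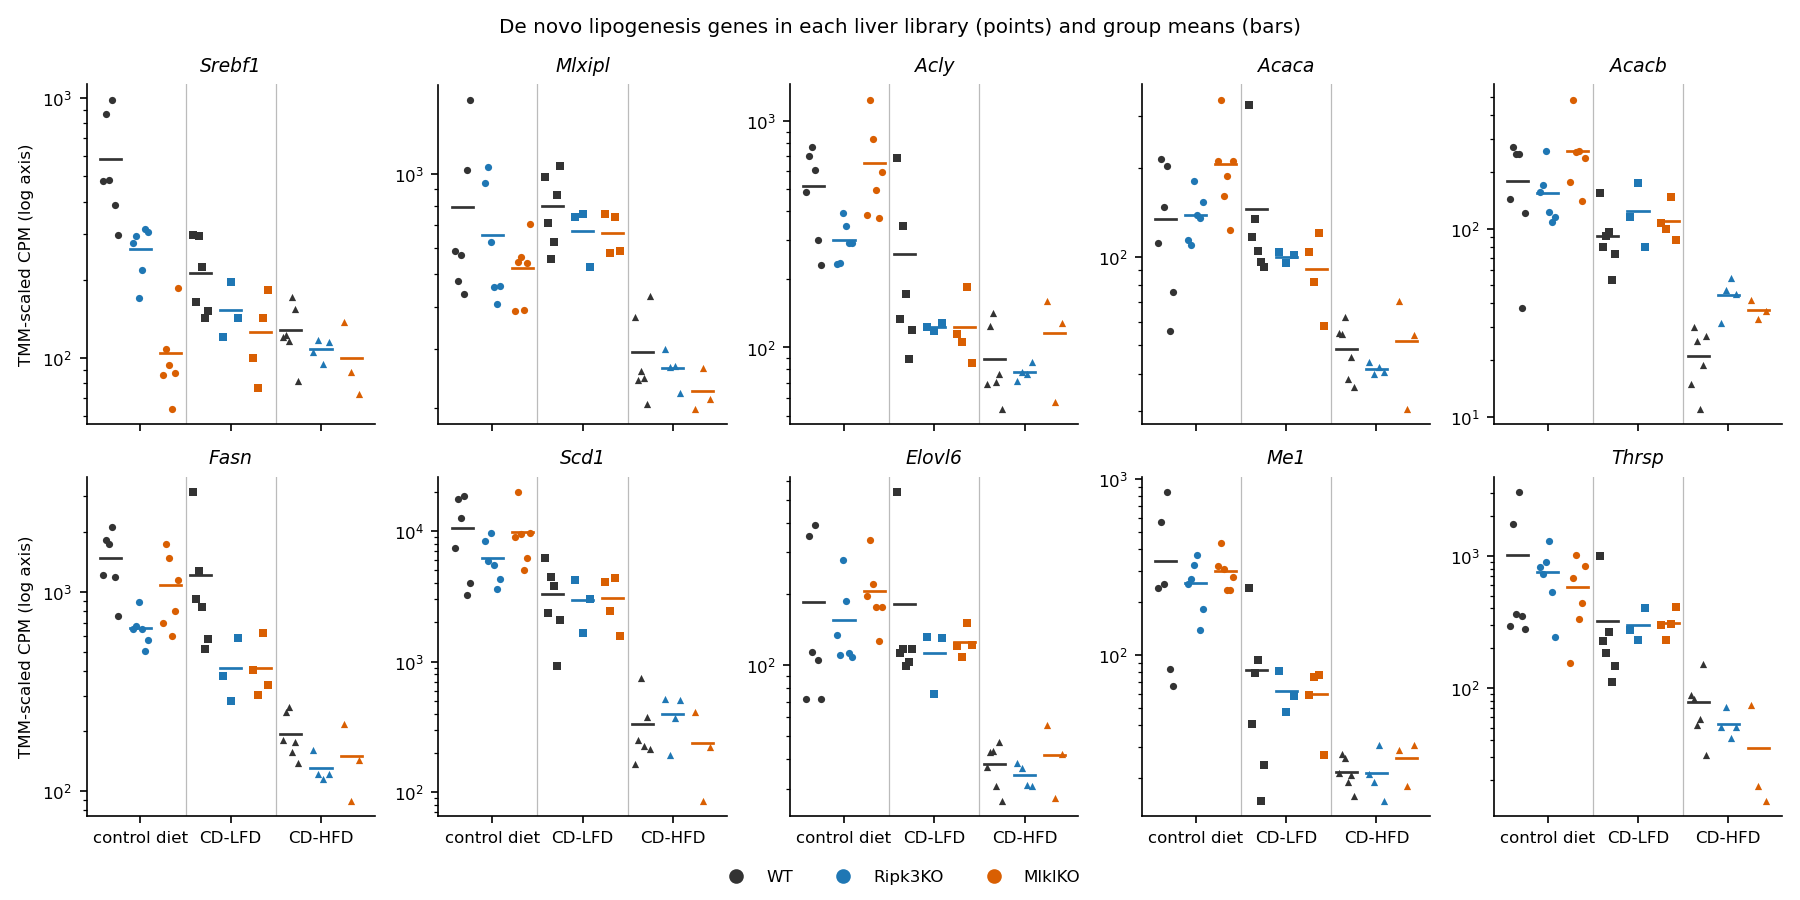
TMM-scaled CPM (log axis) of the 10 genes in each of the 44 libraries, by diet and genotype. Points are libraries and bars are group means. The CD-HFD points lie lowest for Fasn, Scd1 and Elovl6, while MlklKO control libraries are already low for Srebf1, at 63.9 to 186 CPM.

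Setting CD-HFD against the control diet asks how the lipogenic programme responds to the diet that combines fat with choline deficiency. In WT mice 10 of 10 members fell, against 24.1% of all genes tested that were called lower (edgeR quasi-likelihood test, Benjamini-Hochberg adjusted p under 0.05), and for 9 of them no CD-HFD library reached the lowest control library. The median log2 change was -2.72 over the members and -0.07 over all genes. In Ripk3KO mice 10 of 10 fell (21.7% of all genes called lower), all without overlap, with a median of -2.06. In MlklKO mice 9 of 10 fell (20.3% of all genes called lower), with a median of -2.66, and Srebf1 was the exception. Each of these 3 counts of called members stayed within 1 of the value given in every alternative run, leaving out each library in turn included. The share of all genes without overlap is not given here, so the members without overlap have no background value. Scaling by library size alone raised the share of called genes that were higher from 49.4% to 87.0% in WT, 53.1% to 90.3% in Ripk3KO and 55.1% to 89.7% in MlklKO. It moved the median of all genes in WT from -0.07 to 0.43 and that of the members from -2.72 to -2.21. It left 10, 10 and 8 members called lower in WT, Ripk3KO and MlklKO, with Mlxipl losing its call in MlklKO (-0.69, edgeR adjusted p = 0.0997). Hepatocyte markers moved in the same direction: the summed level of the 10 genes was 108758 to 187267 CPM in WT control and 76285 to 118905 in WT CD-HFD libraries, and 8 of the 10 fell and 1 rose by the same test. In Ripk3KO 8 of the 10 fell and 0 rose, and in MlklKO 6 fell and 0 rose. In bulk liver, fewer hepatocytes and less RNA per hepatocyte cannot be told apart.

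The stearoyl-CoA desaturase gene Scd1 had the largest response. In WT it ranged from 3245 to 18666 CPM (median 10068) on the control diet and from 165 to 748 (median 237) on CD-HFD. The MlklKO CD-HFD libraries held 409, 85.6 and 222 CPM, and the Ripk3KO ones 516, 193, 368 and 506. Every CD-HFD library was below the lowest control library of its own genotype. The fall was -5.01 ± 0.51 (log2 change ± SE) in WT, a 32.1-fold difference (edgeR adjusted p = 1.18e-10), -3.98 ± 0.58 in Ripk3KO (edgeR adjusted p = 3.51e-07) and -5.37 ± 0.71 in MlklKO (edgeR adjusted p = 5.46e-08), where it was -6.03 without CD-HFD replicate 1. Elovl6, the elongase that acts on the same chain, was 72.1 to 390 CPM (median 109) in WT control and 26.6 to 47.1 (median 40.0) in WT CD-HFD libraries. Its log2 changes were -2.28 ± 0.39, -2.18 ± 0.45 and -2.30 ± 0.51 in WT, Ripk3KO and MlklKO. These values lie closer together than their standard errors.

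Fasn, which builds the fatty acid chain, was 757 to 2102 CPM (median 1476) in WT control livers and 139 to 264 (median 178) on CD-HFD. The Ripk3KO CD-HFD libraries were at 162, 122, 115 and 122 CPM and the MlklKO ones at 217, 89.3 and 143. The groups did not overlap in any genotype, and the log2 changes were -2.92 ± 0.34 in WT (7.55-fold; edgeR adjusted p = 2.16e-09), -2.33 ± 0.38 in Ripk3KO and -2.85 ± 0.45 in MlklKO. The 2 carboxylase genes differed in the size of their fall in WT. Acacb went from 37.9 to 271 CPM (median 196) down to 11.03 to 29.8 (median 22.0), a log2 change of -3.08 ± 0.34. Acaca went from 56.1 to 214 (median 129) to 36.2 to 62.6 (median 50.1), a change of -1.46 ± 0.28, and it was the only member whose WT groups overlapped, in 1 of 6 CD-HFD libraries. In the knockouts Acacb changed by -1.80 ± 0.37 (Ripk3KO) and -2.81 ± 0.44 (MlklKO), and Acaca by -1.73 ± 0.33 and -1.99 ± 0.37. The difference between the 2 genes was not tested. Acly, the source of cytosolic acetyl-CoA, went from 232 to 772 CPM (median 548) in WT control to 53.7 to 142 (median 73.3) on CD-HFD, with log2 changes of -2.53 ± 0.38, -1.94 ± 0.43 and -2.51 ± 0.49 in WT, Ripk3KO and MlklKO.

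Me1 was 66.5 to 841 CPM (median 246) in WT control and 15.7 to 27.2 (median 21.0) in WT CD-HFD livers. Its log2 change was -3.99 ± 0.50 in WT (15.9-fold; edgeR adjusted p = 1.69e-08), -3.58 ± 0.59 in Ripk3KO and -3.54 ± 0.66 in MlklKO. On CD-HFD the 13 libraries of all genotypes held 14.8 to 30.9 CPM of Me1, a narrow span beside the control diet. Thrsp was 278 to 3038 CPM (median 358) in WT control and 31.2 to 153 (median 70.2) on CD-HFD, with log2 changes of -3.70 ± 0.59, -3.82 ± 0.70 and -4.05 ± 0.81 in WT, Ripk3KO and MlklKO. The WT change was -2.96 without WT control replicate 4, and the MlklKO change was -5.18 without MlklKO CD-HFD replicate 1. The MlklKO CD-HFD libraries held 73.6, 18.1 and 13.9 CPM of Thrsp, with the highest in replicate 1 as labelled, which was also the highest of its group for 8 of 10 members.

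Of the 2 regulators, Mlxipl was 438 to 1658 CPM (median 579) in WT control and 205 to 432 (median 252) in WT CD-HFD livers, with log2 changes of -1.44 ± 0.26, -1.32 ± 0.29 and -1.22 ± 0.33 in WT, Ripk3KO and MlklKO. Within the larger clock phase the WT change was -0.56 ± 0.29 (edgeR adjusted p = 0.112), the only member to lose its call there, and without WT control replicates 5 and 6 it was -0.83 (edgeR adjusted p = 0.00206). Srebf1 was 482, 869, 482, 984, 388 and 297 CPM in the 6 WT control libraries and 121, 122, 117, 172, 155 and 81.7 in the 6 on CD-HFD. It fell by 2.19 ± 0.27 in WT (4.56-fold; edgeR adjusted p = 8.55e-09) and by 1.28 ± 0.30 in Ripk3KO (edgeR adjusted p = 0.000524), without overlap. In MlklKO the control libraries held 86.4, 108, 94.0, 63.9, 87.4 and 186 CPM and the CD-HFD libraries 138, 88.5 and 72.8. These overlapped, and the change was -0.06 ± 0.32 (edgeR adjusted p = 0.889, 95% interval -0.70 to 0.58).

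**Figure D2:**
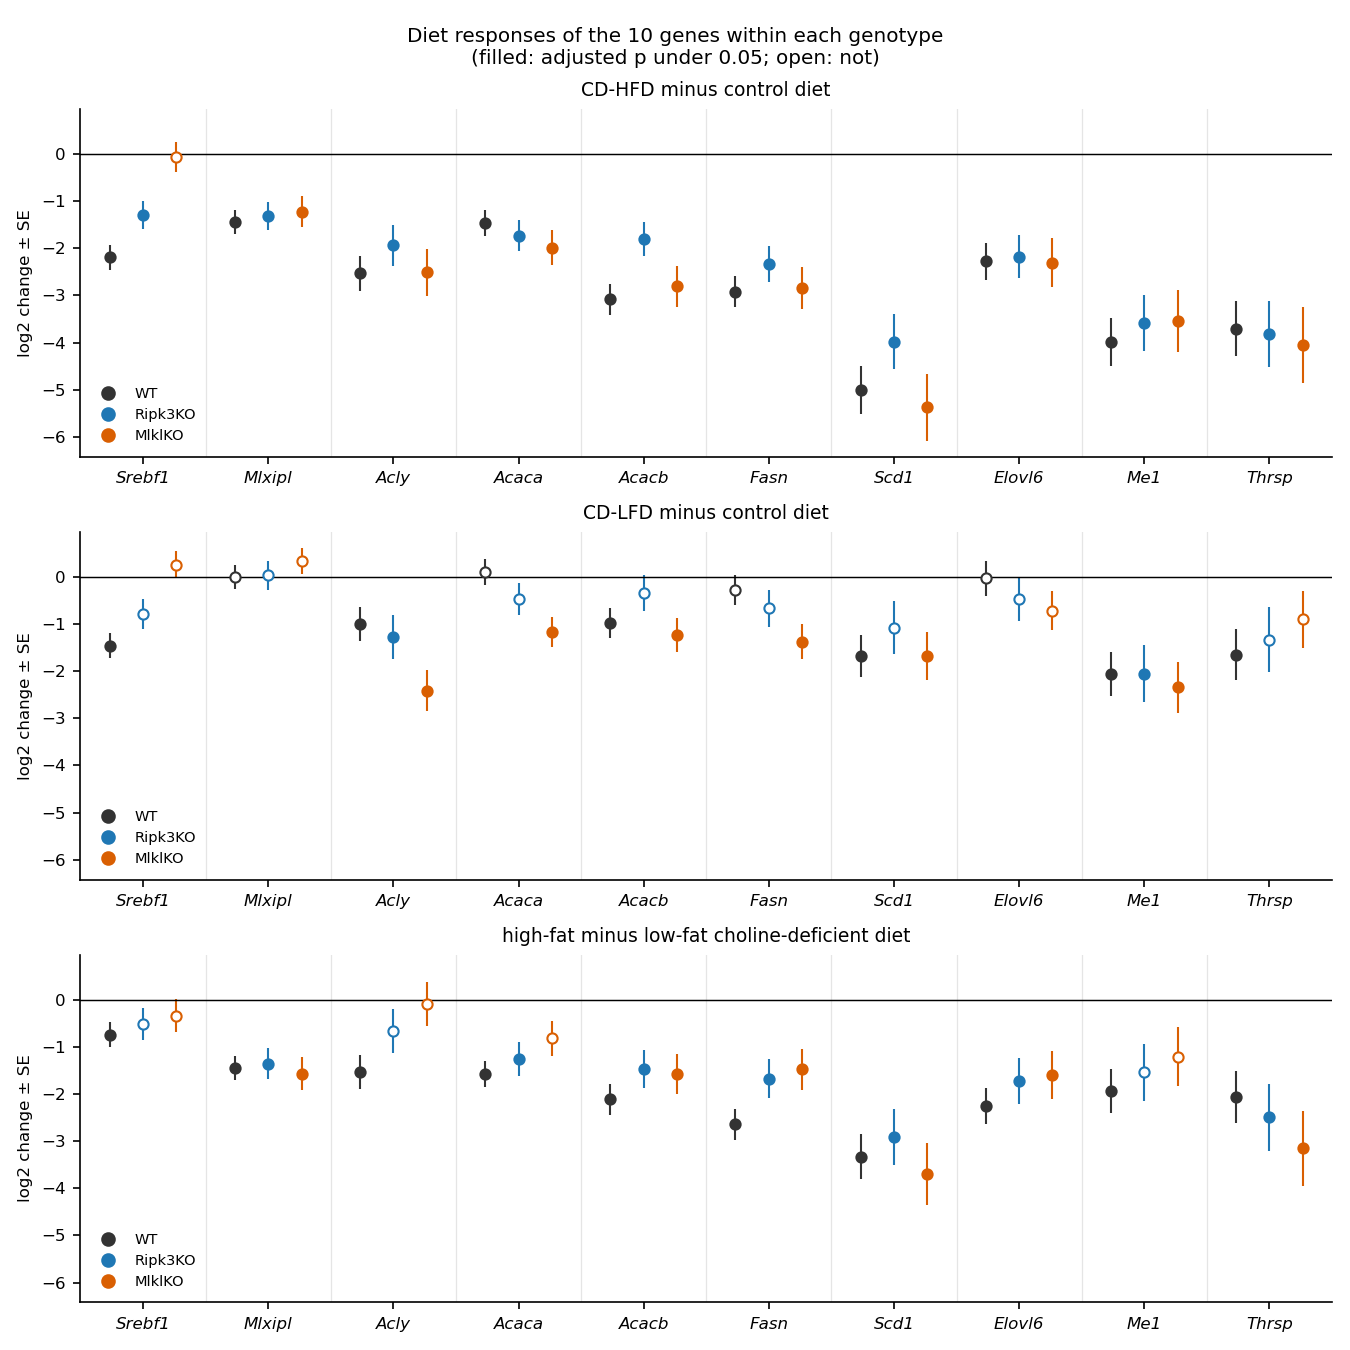
Log2 change ± SE of each gene for the 3 diet comparisons (panels) in WT, Ripk3KO and MlklKO livers. Filled points had an adjusted p under 0.05. Against the control diet every filled point is below 0, and Srebf1 in MlklKO lies at -0.06 on CD-HFD and 0.27 on CD-LFD.

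In WT mice 6 of 10 members were called lower on CD-LFD than on the control diet (14.0% of all genes called lower), namely Srebf1 (-1.46 ± 0.26), Acly (-0.999 ± 0.36), Acacb (-0.97 ± 0.31), Scd1 (-1.68 ± 0.44), Me1 (-2.06 ± 0.46) and Thrsp (-1.65 ± 0.54). The other 4 were not called: Mlxipl 0.01 ± 0.25, Acaca 0.11 ± 0.27, Fasn -0.28 ± 0.31 and Elovl6 -0.03 ± 0.37. All 10 members overlapped between the diets. Cell type markers moved with this diet too: of the 10 hepatocyte markers 3 fell and 0 rose, and their summed level was 82228 to 136729 CPM (median 114196) on CD-LFD against a median of 153426 on the control diet. Summed cholangiocyte markers (124 to 357 CPM against 46.0 to 84.0) and stellate cell markers (308 to 559 against 228 to 280) were higher without overlap. Endothelial markers (133 to 161 against 203 to 265) were lower without overlap. The part of cell composition in the members' changes was not tested. WT CD-LFD replicate 1 was the highest library of its group for 9 of 10 members, for example Elovl6 at 537 CPM against 98.7 to 117 in the other 5, and Fasn at 3146 against 513 to 1274. Without it 7 members were called lower, Fasn among them (-0.83, edgeR adjusted p = 0.0226), and the changes were larger for Acly (-1.59), Me1 (-2.76) and Thrsp (-2.44). The clock phases bear on this comparison, since only 4 WT control libraries shared the phase of the 6 CD-LFD libraries. Over those 10 libraries, a setting added after the data were seen, 1 member was called, Srebf1 (-0.94 ± 0.24, edgeR adjusted p = 0.0268), and the change of Scd1 was -1.03, of Me1 -0.97 and of Thrsp 0.0021. Fitting the compared groups alone left 2 members called, Srebf1 and Scd1, and leaving out WT control replicate 2 or WT CD-LFD replicate 5 left 3. The Acly call ended in 7 of 12 fits that left out a library (WT control replicate 2, 3 or 4 or WT CD-LFD replicate 2, 4, 5 or 6, edgeR adjusted p from 0.0619 to 0.0951). The Acacb call ended without WT control replicate 2 (0.0595) or WT CD-LFD replicate 5 (0.0519). Thrsp lost its call with the clock ratio as a covariate (-0.92, edgeR adjusted p = 0.115), without WT control replicate 4 (-0.91, edgeR adjusted p = 0.197) or 2 (0.0582), and without WT CD-LFD replicate 5 (0.0556) or 6 (0.0542). Mlxipl was called higher without WT control replicates 5 and 6 (0.62, edgeR adjusted p = 0.0275). Scaling by library size alone left 4 members called, without Acly and Acacb, and moved the share of called genes that were higher from 49.6% to 84.9% and the median of all genes from -0.03 to 0.27.

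On CD-LFD fewer members were called in Ripk3KO than in WT or MlklKO, and whether the responses differ is given by the interaction terms. In Ripk3KO 2 of 10 fell (10.1% of all genes called lower): Acly was 234 to 392 CPM (median 290) on the control diet and 123, 118 and 128 on CD-LFD (-1.27 ± 0.46, edgeR adjusted p = 0.0397), and Me1 was 139 to 369 (median 262) and 81.0, 47.2 and 58.2 (-2.05 ± 0.61, edgeR adjusted p = 0.012). Neither gene overlapped between the diets. Both calls ended without Ripk3KO CD-LFD replicate 2 (edgeR adjusted p = 0.0961 for Acly and 0.0523 for Me1) or replicate 3 (0.124 and 0.0727), and Acly alone lost its call without CD-LFD replicate 1 (0.106) or control replicate 3 (0.0710), 4 (0.0607) or 6 (0.0513). In MlklKO 6 of 10 fell (18.3% of all genes called lower). Acly was 374 to 1242 CPM (median 546) on the control diet and 115, 106, 184 and 85.8 on CD-LFD, a change of -2.42 ± 0.44, and Me1 changed by -2.34 ± 0.55. Acaca (-1.17 ± 0.32), Acacb (-1.23 ± 0.36), Fasn (-1.37 ± 0.37) and Scd1 (-1.67 ± 0.51) also fell, with edgeR adjusted p of 0.0097 or less. Srebf1 was 0.27 ± 0.29 and Mlxipl 0.35 ± 0.28, neither called. The summed hepatocyte markers of MlklKO were 152797 to 157739 CPM on CD-LFD and 139794 to 158263 on the control diet (3 of 10 fell and 2 rose), and those of Ripk3KO were 100915 to 162376 and 151423 to 181040 (3 fell and 0 rose). Stellate cell markers were higher on CD-LFD in both knockouts without overlap, at 326 to 569 against 175 to 267 CPM in MlklKO and 243 to 658 against 154 to 234 in Ripk3KO. Within the larger clock phase, which holds all knockout libraries, Srebf1 (-0.78, edgeR adjusted p = 0.0319) and Thrsp (-1.31, edgeR adjusted p = 0.0479) were also called in Ripk3KO, and Elovl6 in MlklKO (-0.72, edgeR adjusted p = 0.0205). With the replicate number as a block Fasn (-0.97, edgeR adjusted p = 0.0409) and Scd1 (-1.38, edgeR adjusted p = 0.0445) were also called in Ripk3KO. With the clock ratio as a covariate Srebf1 was also called in Ripk3KO (-0.81, edgeR adjusted p = 0.0327), and Elovl6 (-1.07, edgeR adjusted p = 0.0299) and Thrsp (-1.55, edgeR adjusted p = 0.0211) in MlklKO. Scaling by library size alone moved the share of called genes that were higher from 58.0% to 88.4% in Ripk3KO, where it left 1 member called, and from 51.9% to 66.1% in MlklKO, where 6 were called.

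The 2 choline-deficient diets are named as low and high in fat, and whether other contents differed between them is not stated here. Their comparison describes a difference between 2 diets, and its cause was not tested. In WT 10 of 10 members were called lower on CD-HFD than on CD-LFD (7.40% of all genes called lower), from Srebf1 (-0.73 ± 0.26) to Scd1 (-3.33 ± 0.47), with a median of -1.99. Fasn (-2.64 ± 0.33), Elovl6 (-2.25 ± 0.39) and Mlxipl (-1.45 ± 0.26), which were not called on CD-LFD, fell without overlap. Srebf1 lost its call in 7 of 12 fits that left out a library: without WT CD-LFD replicate 1, 3 or 4 or WT CD-HFD replicate 1, 2, 3 or 6, with edgeR adjusted p from 0.0606 to 0.111. Thrsp lost it without WT CD-LFD replicate 1 (-1.27, edgeR adjusted p = 0.0803), and without that library the changes were -0.95 for Acly, -1.53 for Elovl6 and -1.22 for Me1. Diet and clock phase cannot be told apart here within a phase, since 1 of 6 CD-HFD libraries shared the phase of CD-LFD. With the clock-gene ratio as a covariate all 10 calls held, and the changes were -2.91 for Elovl6, -2.57 for Me1 and -3.26 for Thrsp. In Ripk3KO 7 of 10 fell (3.08% of all genes called lower), Scd1 by 2.91 ± 0.59 and Thrsp by 2.49 ± 0.72. All 10 were without overlap, those not called included. These groups held 4 and 3 libraries, and the share of all genes without overlap is not given here. Leaving out Ripk3KO CD-LFD replicate 3 or CD-HFD replicate 5 left 4 called. In MlklKO 6 of 10 fell (9.14% of all genes called lower): Mlxipl (-1.57 ± 0.35), Acacb (-1.57 ± 0.43), Fasn (-1.48 ± 0.43), Scd1 (-3.70 ± 0.66), Elovl6 (-1.59 ± 0.52) and Thrsp (-3.15 ± 0.80). Acly was not called there, at -0.09 ± 0.47, and leaving out MlklKO CD-HFD replicate 2 left 4 called. Without MlklKO CD-HFD replicate 1 the changes were -4.35 for Scd1 and -4.28 for Thrsp. Over the libraries of the larger clock phase Me1 was also called in Ripk3KO (-1.54, edgeR adjusted p = 0.00109), and Acaca (-0.85, edgeR adjusted p = 0.0137) and Me1 (-1.23, edgeR adjusted p = 0.00416) in MlklKO. Fitting the compared groups alone also called these, with Srebf1 (-0.48, edgeR adjusted p = 0.0446) and Acly (-0.66, edgeR adjusted p = 0.00243) in Ripk3KO. Scaling by library size alone raised the share of called genes that were higher from 65.0% to 85.9% in WT, from 65.1% to 88.8% in Ripk3KO and from 61.4% to 92.5% in MlklKO, and left 9, 7 and 6 members called lower. In WT, summed macrophage (719 to 1892 CPM against 189 to 312), cholangiocyte (698 to 1172 against 124 to 357) and stellate cell markers (681 to 1253 against 308 to 559) were higher on CD-HFD without overlap. The other marker sums overlapped in WT. Hepatocyte markers were lower on CD-HFD without overlap in MlklKO (88630 to 116395 against 152797 to 157739) and overlapped in Ripk3KO. The part of cell composition was not tested.

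The knockouts were compared with WT on the control diet to ask what loss of Ripk3 or Mlkl does without the disease diets. These comparisons share the WT control libraries. The gene that stood out was Srebf1 in MlklKO: the 6 libraries (63.9 to 186 CPM, median 90.7) were all below the 6 WT libraries (297 to 984, median 482), a log2 difference of -2.49 ± 0.27 or 5.60-fold (edgeR adjusted p = 2.83e-08). It was the only member called lower in MlklKO, where 14.1% of all genes were, and 0 were called higher. Mlxipl (-0.60 ± 0.25, edgeR adjusted p = 0.0729) and Acaca (0.61 ± 0.28, edgeR adjusted p = 0.0937) had unadjusted p under 0.05. None of the enzyme genes passed the test, with Fasn at -0.45 ± 0.31 (95% interval -1.08 to 0.18), Scd1 at -0.10 ± 0.43 (-0.97 to 0.77) and Elovl6 at 0.16 ± 0.37 (-0.59 to 0.90). Against the 2 WT control libraries put in the same clock phase by the split (replicates 2 and 4), Srebf1 was lower by -3.13 ± 0.28, and Me1 (-1.20 ± 0.30, edgeR adjusted p = 0.00913) and Thrsp (-2.01 ± 0.51, edgeR adjusted p = 0.00928) were also lower. The Arntl to Dbp log2 ratios of these 2 libraries (-5.79 and -7.88) lay below those of the MlklKO control libraries (-4.96 to -3.67). The ratio was thus not matched, and its part in these differences was not tested. In the comparison with all WT libraries, leaving out replicate 2 or replicate 4 gave 3 called members, Srebf1 with Mlxipl lower (-0.71 and -0.72, edgeR adjusted p = 0.0356 and 0.0315) and Acaca higher (0.79 and 0.76, edgeR adjusted p = 0.0333 and 0.0442). Mlxipl was also called without WT control replicate 3 (edgeR adjusted p = 0.0492), without MlklKO control replicate 6 (0.0412) and by DESeq2 (0.0481).

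In Ripk3KO control livers 2 members were lower than in WT (2.23% of all genes called lower). The number of genes called in this comparison was 665 (331 lower and 334 higher), and it was 171 with the clock ratio as a covariate, 139 within the larger clock phase and 45 when the compared groups were fitted alone. With library size scaling 722 were called lower and 229 higher. Srebf1 was 171 to 314 CPM (median 286) and differed by -1.15 ± 0.26 (edgeR adjusted p = 0.00597). Fasn was 506 to 885 (median 648) and differed by -1.16 ± 0.32 (edgeR adjusted p = 0.0240). Both overlapped WT, Srebf1 in 2 of 6 libraries and Fasn in 1. The Fasn call ended without the library labelled Ripk3KO control replicate 5 (edgeR adjusted p = 0.0596), without replicate 4 (0.0510) or 6 (0.0562), and without WT control replicate 4 (0.0501). It also ended with the clock ratio as a covariate (edgeR adjusted p = 0.0606), where the difference was no smaller (-1.32). The Srebf1 call ended when the compared groups were fitted alone (edgeR adjusted p = 0.0841). Within the larger clock phase, against 2 WT libraries, 4 members were called: Srebf1 (-1.81 ± 0.28), Fasn (-1.58 ± 0.30), Me1 (-1.45 ± 0.30) and Elovl6 (-1.26 ± 0.29).

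On CD-LFD Fasn was the only member called in either knockout against WT. It held 377, 282 and 582 CPM in Ripk3KO and 403, 304, 617 and 340 in MlklKO, against 513 to 3146 (median 876) in WT, and the differences were -1.55 ± 0.41 (1 of 10 members called lower, 0.310% of all genes; edgeR adjusted p = 0.0490) and -1.54 ± 0.37 (1 of 10 called lower, 0.929% of all genes; edgeR adjusted p = 0.0138). Both groups overlapped WT. Beside this, the summed hepatocyte markers were higher in MlklKO (152797 to 157739 CPM) than in WT (82228 to 136729) on CD-LFD, without overlap. Without WT CD-LFD replicate 1, the highest library for Fasn, the Fasn differences were -0.99 in Ripk3KO (edgeR adjusted p = 0.206) and -0.99 in MlklKO (0.0813). The Ripk3KO call of Fasn also ended without WT CD-LFD replicate 2 (0.0510) or 3 (0.0562) or Ripk3KO CD-LFD replicate 1 (0.224) or 2 (0.323), and the MlklKO call without MlklKO CD-LFD replicate 2 (0.0773) or 4 (0.0604). No WT CD-LFD library was in the clock phase of the knockouts, so genotype and clock phase cannot be told apart on this diet. With the clock ratio as a covariate the number of genes called fell from 164 to 11 in Ripk3KO and from 381 to 18 in MlklKO. In that fit Fasn lost both calls, though its differences were no smaller, at -1.74 in Ripk3KO (edgeR adjusted p = 0.192) and -1.73 in MlklKO (0.126). Srebf1, at -0.76 in MlklKO without the covariate, was called lower with it (-1.44, edgeR adjusted p = 0.0415). Scaling by library size alone also called Srebf1 lower in MlklKO (-0.97, edgeR adjusted p = 0.0259), and moved the share of called genes that were higher from 63.8% to 17.0% there and from 72.0% to 48.3% in Ripk3KO.

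On CD-HFD 0 of 10 members were called in Ripk3KO against WT by edgeR (0.377% of all genes in either direction) and 1 had an unadjusted p under 0.05. In MlklKO 0 of 10 were called by edgeR or DESeq2 (edgeR called 0% of all genes) and 1 had an unadjusted p under 0.05. That member was Acacb in both. It was 31.6, 47.2, 54.5 and 45.0 CPM in Ripk3KO and 41.6, 33.1 and 36.3 in MlklKO, against 11.03 to 29.8 (median 22.0) in WT, so every knockout library was above every WT library. The differences were 1.08 ± 0.35 (edgeR adjusted p = 0.205) and 0.81 ± 0.38 (edgeR adjusted p = 0.587), and the 2 comparisons share the WT libraries. Fitting the compared groups alone called Acacb higher in Ripk3KO (1.05, edgeR adjusted p = 0.0304). Library size scaling moved the share of called genes that were higher in Ripk3KO from 55.4% to 34.4%. For Scd1 the 95% intervals of the difference were -0.71 to 1.23 in Ripk3KO and -1.56 to 0.62 in MlklKO, and for Fasn -1.30 to 0.14 and -1.17 to 0.41.

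**Figure D3:**
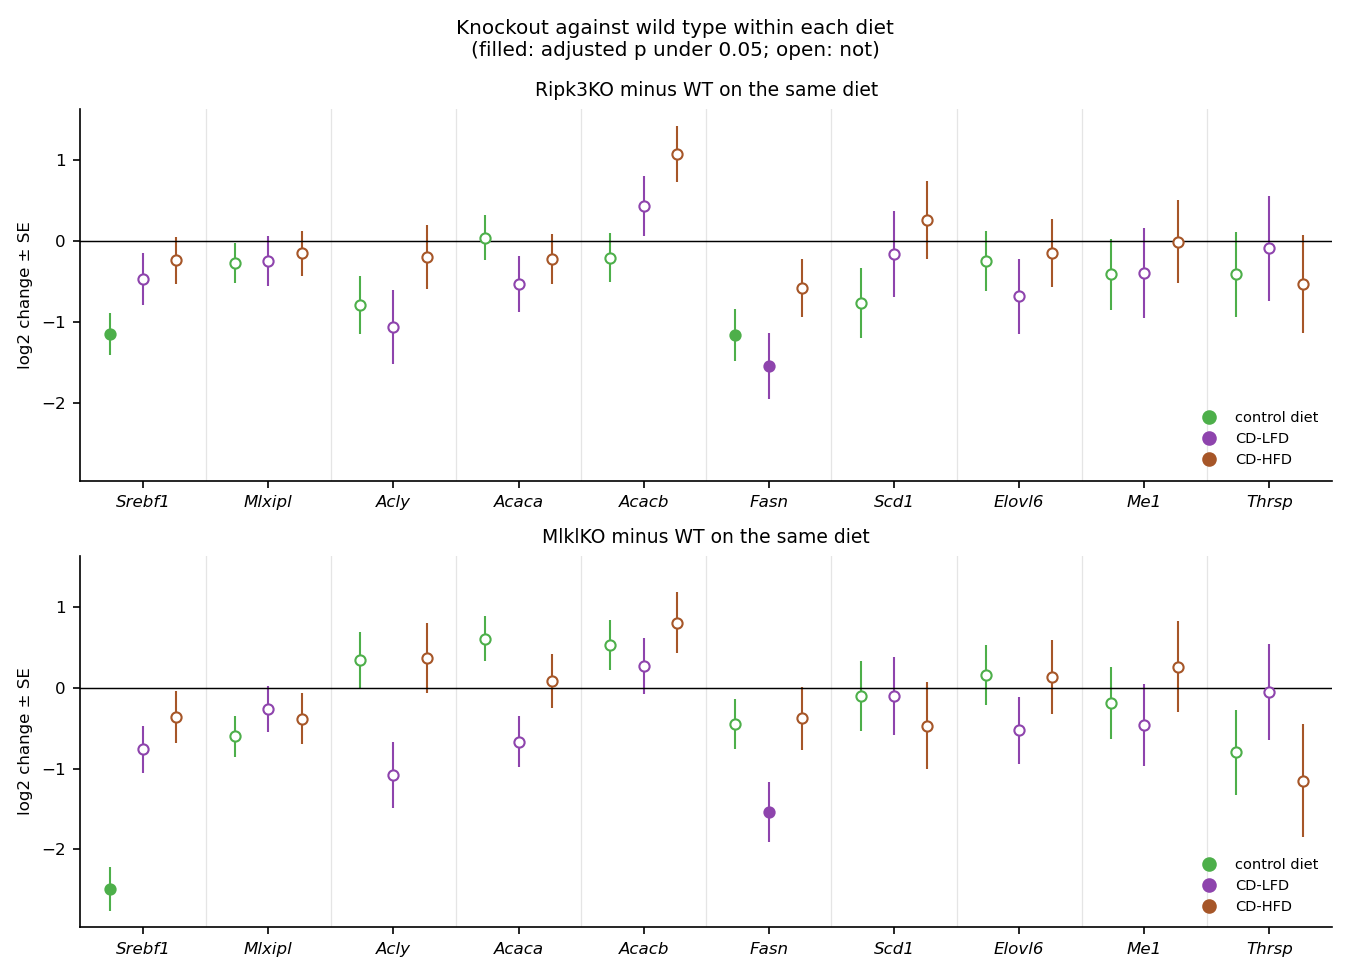
Log2 difference ± SE between each knockout and WT on the same diet, for the 10 genes. Filled points had an adjusted p under 0.05. Srebf1 on the control diet (-1.15 in Ripk3KO, -2.49 in MlklKO) and Fasn on CD-LFD (-1.55 and -1.54) are filled, as is Fasn on the control diet in Ripk3KO (-1.16), while no CD-HFD point is.

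Interaction terms tested whether a diet changed a member by a different amount in a knockout than in WT. For MlklKO on CD-HFD 1 of 10 was called (4.12% of all genes in either direction): Srebf1, whose change was higher by 2.13 ± 0.40 than in WT (edgeR adjusted p = 0.00181). On CD-LFD 2 of 10 were called (8.45% of all genes). Srebf1 was higher by 1.72 ± 0.38 (edgeR adjusted p = 0.00388), and Acaca was lower by -1.28 ± 0.42 (edgeR adjusted p = 0.0470). The Acaca call ended in 10 of 22 fits that left out a library, with edgeR adjusted p from 0.0534 to 0.143, the highest without WT CD-LFD replicate 1. Those libraries were WT control replicates 1, 5 and 6, WT CD-LFD replicate 1, MlklKO control replicates 1, 2 and 4 and MlklKO CD-LFD replicates 1, 2 and 4. With scaling by library size alone, Acly was also called lower on CD-LFD (-1.52, edgeR adjusted p = 0.0488), and the share of called genes that were higher moved from 51.7% to 25.9%. The Srebf1 interaction on CD-HFD was 2.69 ± 0.40 within the larger clock phase (edgeR adjusted p = 0.000448), where Me1 was also called (1.46 ± 0.43, edgeR adjusted p = 0.0438). For Ripk3KO edgeR called 0 of 10 on CD-LFD (0.0269% of all genes; 0 with unadjusted p under 0.05) and 0 of 10 on CD-HFD (0.478% of all genes; 2 with unadjusted p under 0.05), and DESeq2 also called 0 in both. Those 2 were Srebf1 (0.91 ± 0.38) and Acacb (1.29 ± 0.47). Acacb was called within the larger clock phase (1.85, edgeR adjusted p = 0.0486) and without WT control replicates 5 and 6 (1.64, edgeR adjusted p = 0.0340).

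Srebf1 mRNA and the mRNAs of its target enzymes were set side by side across the groups. MlklKO control libraries held 63.9 to 186 CPM of Srebf1 with 5036 to 19864 CPM of Scd1, while WT CD-HFD libraries held 81.7 to 172 CPM of Srebf1 with 165 to 748 CPM of Scd1. The Srebf1 ranges overlapped and the Scd1 ranges were far apart. Fasn showed the same pattern, at 602 to 1739 CPM in MlklKO control and 139 to 264 in WT CD-HFD livers. Gene counts do not measure the cleavage that activates the SREBP protein.

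**Figure D4:**
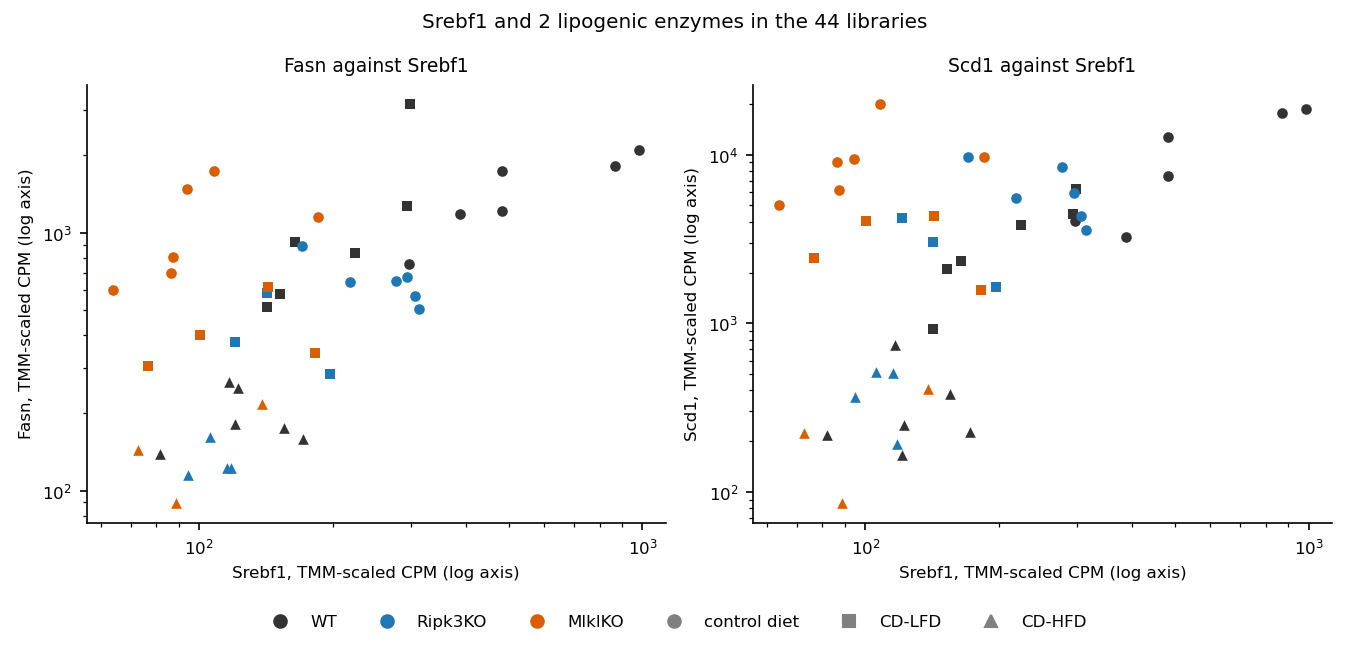
Fasn (left) and Scd1 (right) against Srebf1, each in TMM-scaled CPM on log axes, for the 44 libraries. Color gives genotype and shape gives diet. MlklKO control libraries (orange circles) sit at 63.9 to 186 CPM of Srebf1, overlapping the CD-HFD libraries (triangles), but with 5036 to 19864 CPM of Scd1.

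Clock phase moved with several members among the WT control libraries. Replicates 2 and 4, the 2 in the larger phase, held 1732 and 3038 CPM of Thrsp, against 278 to 365 in the other 4. They held 353 and 390 CPM of Elovl6 against 72.1 to 114, 569 and 841 of Me1 against 66.5 to 252, and 869 and 984 of Srebf1 against 297 to 482. These 2 libraries lay above the other 4 for 8 of 10 members, the others being Acaca (202 to 214 against at most 147 CPM), Fasn (1814 to 2102 against at most 1736), Scd1 (17628 to 18666 against at most 12655) and, by a narrow gap, Acacb (249.6 to 271 against at most 249.1). They overlapped the other 4 for Acly, and for Mlxipl they lay below, at 478 and 438 CPM against 572 to 1658. Within the larger phase the WT changes on CD-HFD were -6.16 ± 0.49 for Scd1, -5.04 ± 0.32 for Me1, -4.80 ± 0.55 for Thrsp, -3.29 ± 0.30 for Elovl6, -2.79 ± 0.29 for Srebf1 and -2.13 ± 0.26 for Acaca, and 9 of 10 members were called. The difference between these values and those over all libraries was not tested. The part of clock phase in the levels on the other diets was not tested.

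**Figure D5:**
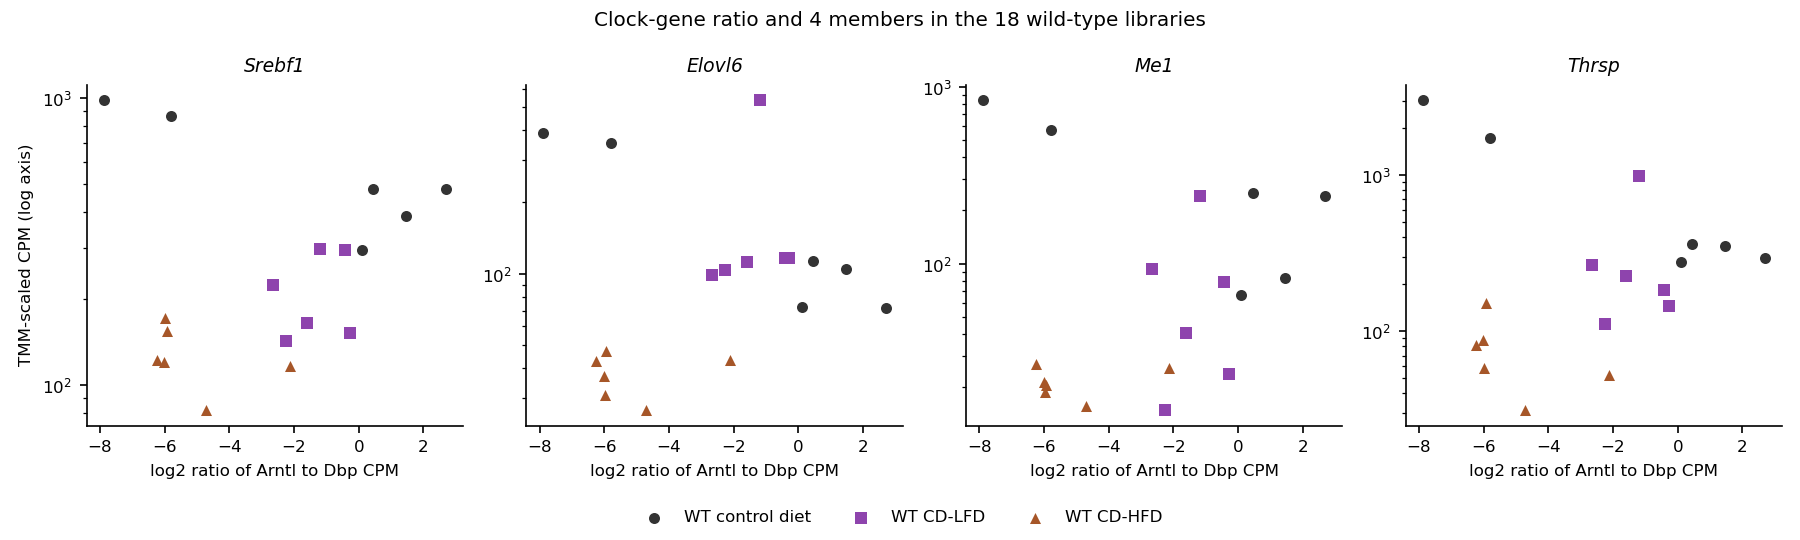
Srebf1, Elovl6, Me1 and Thrsp (TMM-scaled CPM, log axis) against the log2 ratio of Arntl to Dbp in the 18 WT libraries, by diet. The WT control libraries with the lowest ratios, replicates 2 and 4, hold the highest Srebf1, Me1 and Thrsp, while the 6 CD-HFD libraries hold 31.2 to 153 CPM of Thrsp.

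Genes around the pathway were followed in lists by role. Among 20 regulators of SREBP-1c and ChREBP, 11 fell and 1 rose on CD-HFD in WT (24.1% of all genes called lower and 23.5% higher). Insig1, an SREBP retention protein and target, fell by 1.62 ± 0.23, and Nfya, a subunit of the CCAAT-binding factor, rose by 1.03 ± 0.17. On CD-LFD 5 of the 20 fell and 1 rose (14.0% and 13.7% of all genes), with Scap, the SREBP escort protein, at -1.14 ± 0.16 and Nfya at 0.47 ± 0.17. Of 17 carbon and NADPH supply genes 11 fell and 3 rose on CD-HFD in WT. Acss2, which makes acetyl-CoA from acetate, fell from a mean of 346 CPM by 2.70 ± 0.30, and G6pdx of the pentose phosphate pathway rose by 1.52 ± 0.21 from 6.35 CPM. Against CD-LFD, Pklr, the liver pyruvate kinase and a ChREBP target, fell by 2.27 ± 0.40, and G6pdx rose by 1.44 ± 0.20. On CD-LFD 4 fell and 3 rose, with Pdk4, which restrains pyruvate oxidation, at 1.72 ± 0.37 and Acss2 at -1.57 ± 0.29.

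Of 8 genes of malonyl-CoA control 3 fell and 1 rose on CD-HFD in WT, where 24.1% of all genes were called lower and 23.5% higher. Mid1ip1, which promotes polymerisation of acetyl-CoA carboxylase and is a paralog of Thrsp, fell by 2.09 ± 0.27, and Prkab2, an AMPK subunit, rose by 1.06 ± 0.25. Of 11 other elongases and desaturases 5 fell and 3 rose. Elovl3 had the largest fall, -5.82 ± 0.57 or 56.6-fold from a mean of 375 CPM, while Scd2 rose by 1.52 ± 0.28 from 6.83 CPM, opposite in direction to Scd1. Of 14 genes of fatty acid activation and triglyceride synthesis 6 fell and 1 rose, with Gpam, the first acyltransferase of glycerolipid synthesis, at -1.70 ± 0.26 and Agpat1 at 0.59 ± 0.24. Of 19 sterol synthesis genes under SREBP-2, 16 fell and 0 rose, with a median of -0.87, and Pmvk had the largest fall (-1.96 ± 0.25). In the same list 12 of 19 genes fell on CD-LFD in WT (14.0% of all genes called lower), and in MlklKO 14 fell on CD-HFD (20.3%) and 17 on CD-LFD (18.3%). Between the choline-deficient diets in WT (7.40% of all genes called lower and 13.7% higher) Elovl3 fell by 3.55 ± 0.52 and Agpat2 by 1.03 ± 0.16, and Fdps of the sterol pathway by 1.28 ± 0.35.

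Among 10 genes of the fasting and feeding response, 2 rose and 3 fell on CD-HFD in WT (23.5% of all genes called higher and 24.1% lower), and 3 rose and 2 fell on CD-LFD (13.7% and 14.0%). Fgf21, a hormone released by the stressed or fasting liver, rose by 5.27 ± 0.51 and 6.20 ± 0.51, from 1.28 CPM. Angptl8, a secreted protein induced by feeding and insulin, fell by 3.46 ± 0.46 and 1.51 ± 0.42. On the control diet Angptl8 was also lower in MlklKO than in WT, by -3.14 ± 0.45 without overlap, beside the fall of Srebf1, and Angptl4 was higher by 1.66 ± 0.28 (14.1% of all genes called lower and 13.0% higher). In the same comparison Mid1ip1 was lower by -1.61 ± 0.26, Insig1 by -1.02 ± 0.22 and Gpam by -1.07 ± 0.26. Sqle was higher by 1.10 ± 0.26 and Lpin1 by 1.87 ± 0.45, and both lost their call within the larger clock phase (0.96, edgeR adjusted p = 0.0590, and 0.72, edgeR adjusted p = 0.345). In Ripk3KO control livers (2.23% of all genes called lower and 2.25% higher) Insig1 was lower by -0.83 ± 0.22, Elovl3 by -1.61 ± 0.46, Hmgcs1 by -1.01 ± 0.25 and the gluconeogenic gene G6pc by -2.16 ± 0.46. Cyp4a14, a fatty acid hydroxylase, was higher by 3.35 ± 0.78. Its Ripk3KO libraries were split, with 4 of 6 above every WT library and 2 below every WT library. Each of these differences had an edgeR adjusted p under 0.05. With the clock ratio as a covariate none of the 5 Ripk3KO differences was called (edgeR adjusted p from 0.176 for G6pc to 0.850 for Elovl3), and Elovl3 turned to 0.34. Within the larger clock phase none was called either, and Elovl3 was 0.58.

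Across all 44 libraries the mean of the 10 members (each on the log2 CPM scale at unit SD) was most like Acss2 among genes outside the list, with Pearson r = 0.930. Lactb2 (0.926), Pygl, the liver glycogen phosphorylase (0.926), 1810008I18Rik (0.925), Slc15a5 (0.925), Anks4b (0.925), Cyb5r3 (0.921) and Qdpr (0.920) followed. The members' own correlations with that mean ranged from 0.969 (Scd1) and 0.951 (Fasn) down to 0.640 (Mlxipl) and 0.596 (Srebf1). Each member is part of that mean, which raises its r, so these values cannot be set against those of genes outside the list. All libraries enter these values, with diets and genotypes pooled, and correlations within 1 diet were not computed.

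Adipocytes also express the lipogenic enzymes, and their markers were checked. Adipoq and Lep were at 0 in 42 of 44 libraries and Plin1 in 41, with at most 3 counts in any library. The summed level of the 10 adipocyte markers was 21.3 to 72.6 CPM in WT control and 40.7 to 49.4 in WT CD-HFD livers, carried by Fabp4 and Adrb3. Macrophage (154 to 211 and 719 to 1892 CPM), cholangiocyte (46.0 to 84.0 and 698 to 1172 CPM) and stellate cell markers (228 to 280 and 681 to 1253 CPM) were higher in WT CD-HFD than in WT control libraries, without overlap. Lymphocyte markers were also higher (median 6.72 and 19.0 CPM), and endothelial markers were lower (203 to 265 and 113 to 175 CPM). Their part in the fall of the lipogenic genes was not tested.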

How the data were processed

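The deposited matrix holds raw counts per gene made by the authors, and FastQC, STAR, HTSeq, edgeR, limma and the build GRCm39 (mm39) are named without roles, per the submitters' processing notes. Symbols were missing for 876 of 35249 genes, which held 0.08376% of counts. With edgeR 4.0.16 in R 4.3.3, counts were filtered (filterByExpr, minimum count 10, leaving 14862 genes), scaled by TMM and fitted over all 44 libraries with 1 mean per group. The quasi-likelihood F test gave 19 contrasts, each adjusted over all genes tested by Benjamini-Hochberg (threshold 0.05). The script was tested on simulated data. Over 93 pairs of libraries of the same group, chi-square divided by its degrees of freedom was 7.26 to 117, so none was a duplicate. Log2 changes are the first group minus the second.

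The members and lists were chosen with earlier results of these data known. Of each pathway list, the called genes with the largest rise and fall (mean log2 CPM of at least 1) could be named in 5 comparisons (1 such result is not reported here), and the 8 genes most correlated with the members' mean were named. Alternatives were DESeq2 1.42.0, RLE size factors, library size only, no filter, the compared groups only, a replicate block, the Arntl to Dbp ratio as a covariate or as a split, and leaving out libraries. Splitting on that ratio used its largest gap (1.01, the next being 0.762). Promoters came from RefSeq on GRCm38.p6, another build than that of the counts, so no other coordinates are given.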

Additional observations from a re-analysis of the deposited data

Results flagged for a closer look

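Each member in each group of 4 or more libraries made 1 set. In 10 of 70 such sets 1 library stood apart from the rest by Dixon's criterion, which chance meets in about 1 in 20 independent sets. These sets share libraries and are not independent, so that rate is no measure for them. WT CD-LFD replicate 1 was the highest of its group and stood apart for 5 genes, with 325 CPM of Acaca, 3146 of Fasn, 537 of Elovl6, 240.4 of Me1 and 997 of Thrsp. MlklKO control replicate 2 stood apart with 483 CPM of Acacb and 19864 of Scd1, and MlklKO control replicate 6 with 186 CPM of Srebf1. WT CD-HFD replicate 3, the only library of its group in the smaller clock phase, stood apart with 748 CPM of Scd1, and Ripk3KO CD-HFD replicate 1 with 162 CPM of Fasn.

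The diet response differed between MlklKO and WT, by the interaction test, for Srebf1 on CD-LFD (1.72) and on CD-HFD (2.13) and for Acaca on CD-LFD (-1.28).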

How the results depend on the processing

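Of 74 called member changes, 51 kept their call in every alternative run, and 23 lost it at least once. DESeq2, RLE size factors, no filter and the replicate block ended 0 of the 74 calls, library size only 5, the clock covariate 4 and the compared groups alone 8. The 1 reversal was Thrsp in WT CD-LFD against control, at 0.00205 (edgeR adjusted p = 0.998) over the libraries of the other clock phase, a setting chosen after seeing the data. The cause of these shifts was not tested.

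Counts of called members moved by over 1.5 times as follows. In WT CD-LFD against control 6 became 1 in the other clock phase and 2 with the compared groups only, and 3 to 7 on leaving out 1 library. In Ripk3KO CD-LFD against control 2 became 1 by library size only, 4 with the replicate block and 4 in one clock phase, and 0 to 2 on leaving out 1 library. In Ripk3KO CD-HFD against CD-LFD 7 became 4 to 7 on leaving out 1 library. In Ripk3KO against WT on control diet 2 became 1 with the clock covariate, 1 without the doubted libraries (Ripk3KO control replicate 5 and MlklKO CD-HFD replicate 1), 1 with the compared groups only, 4 in one clock phase, and 1 to 2 on leaving out 1 library. In MlklKO against WT on control diet 1 became 3 in one clock phase, 2 by DESeq2, and 1 to 3 on leaving out 1 library. On CD-LFD, Ripk3KO against WT went from 1 to 0 with the clock covariate and 0 with the compared groups only, and MlklKO against WT from 1 to 2 by library size only and 0 with the compared groups only, each 0 to 1 on leaving out 1 library. On CD-HFD, Ripk3KO against WT went from 0 to 1 with the compared groups only. The MlklKO by CD-LFD interaction went from 2 to 1 without WT control 5 and 6, 1 with the compared groups only, and 1 to 3 on leaving out 1 library. The Ripk3KO by CD-HFD interaction went from 0 to 1 in one clock phase and 1 without WT control 5 and 6, and the MlklKO by CD-HFD interaction from 1 to 2 in one clock phase.

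Counts over all genes moved by over 1.5 times in 14 of 19 comparisons, the lowest and highest over the alternatives being 1328 and 6381 (4117 as given) for WT CD-LFD against control, 1390 and 4699 (3576) for Ripk3KO CD-LFD against control, 510 and 2821 (1312) for Ripk3KO CD-HFD against CD-LFD, and 1934 and 5163 (3523) for MlklKO CD-HFD against CD-LFD. Against WT they were 45 and 1024 (665) for Ripk3KO and 1739 and 4444 (4029) for MlklKO on control diet, 11 and 278 (164) and 18 and 873 (381) on CD-LFD, and 15 and 252 (56) and 0 and 2 (0) on CD-HFD. For the interactions they were 0 and 33 (4) and 17 and 204 (71) in Ripk3KO, and 741 and 1868 (1256) and 195 and 1265 (612) in MlklKO, on CD-LFD and CD-HFD.

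Replicate numbers did not pair libraries: the median correlation of deviations was -0.0114 over 146 same-numbered pairs (range -0.349 to 0.545) and -2.2e-05 over 707 others. With the lowest member count at 83, spread between libraries rather than counting limited precision.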
